A study of Mus musculus with 18 samples.

Results

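The whole-brain side of a systemic LPS challenge was described here from the input libraries of a TRAP experiment in Cx3cr1-NuTRAP mice. Input is RNA of the cleared half-brain lysate set aside before the pull-down, so it holds transcripts of all brain cells and of blood left in the vessels. Of the 18 libraries of the series, the 8 used were the input libraries of 4 mice given LPS (animals 266, 267, 270 and 507) and 4 given PBS (animals 268, 272, 273 and 506). The input library of the remaining LPS animal, 271, held 1250 counts and was left out. LPS, a lipopolysaccharide from the cell wall of Gram-negative bacteria, was injected intraperitoneally at 5 mg/kg, PBS served as the sham control, and brains were collected 24 h later.

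All animals, controls included, were Cx3cr1-cre/ERT2+; NuTRAP+ mice that had received tamoxifen at about 3 months of age, 3 to 4 weeks before the injection. Cre is driven by the Cx3cr1 gene, which in brain is active mainly in microglia, and tamoxifen switches on a tagged ribosomal protein and a tagged nuclear envelope protein in those cells. The line carries Cre in 1 copy of Cx3cr1, so both treatment groups are heterozygous for that gene. The LPS group held 3 females and 1 male and the PBS group 2 females and 2 males, so sex was not balanced. Each library came from 1 animal.

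LPS is sensed by Toll-like receptor 4, whose signal reaches the transcription factor NF-kB and, through interferons and STAT proteins, the interferon-stimulated genes. A systemic dose acts first on blood, on the vessel wall and on the cells at the borders of the brain, and cytokines then reach astrocytes, oligodendrocytes, neurons and microglia. Brain endothelium forms the blood-brain barrier with tight junctions and selective transporters, astrocytes answer injury by a reactive program, and oligodendrocytes make myelin.

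The 3 promoters below belong to genes among the most raised, and are shown because letters like the sites of NF-kB or of interferon-regulated factors lie in them. Each is the 250 bases before the annotated start from RefSeq, in build GRCm38.p6, 5′ to 3′ on the strand of the gene. Capitals mark matches to GGGANTTNC, a kappaB-like pattern, or GAAANNGAA, a pattern like an interferon response element, on either strand. Cxcl1 lies on chromosome 5 (90890995 to 90891244, plus strand), Cxcl10 on chromosome 5 (92348890 to 92349139, minus strand) and Gbp2 on chromosome 3 (142620413 to 142620662, plus strand).
Cxcl1: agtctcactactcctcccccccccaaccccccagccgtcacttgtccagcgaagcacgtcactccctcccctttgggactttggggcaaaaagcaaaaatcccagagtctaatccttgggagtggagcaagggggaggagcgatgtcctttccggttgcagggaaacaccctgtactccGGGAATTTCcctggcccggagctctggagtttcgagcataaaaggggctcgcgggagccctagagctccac
Cxcl10: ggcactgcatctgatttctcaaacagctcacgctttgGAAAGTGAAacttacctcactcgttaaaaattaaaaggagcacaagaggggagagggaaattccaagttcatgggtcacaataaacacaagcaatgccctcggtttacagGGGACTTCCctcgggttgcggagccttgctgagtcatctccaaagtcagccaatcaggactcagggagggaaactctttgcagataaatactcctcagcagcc
Gbp2: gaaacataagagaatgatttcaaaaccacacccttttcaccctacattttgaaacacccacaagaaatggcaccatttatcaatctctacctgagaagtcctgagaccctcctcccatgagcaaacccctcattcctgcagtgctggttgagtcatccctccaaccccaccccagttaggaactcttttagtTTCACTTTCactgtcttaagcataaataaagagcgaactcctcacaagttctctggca
The match in Gbp2 is on the opposite strand and therefore reads TTCACTTTC. In Cxcl10 the interferon-like match begins 213 bases and the kappaB-like match 103 bases before the start, in Cxcl1 the kappaB-like match begins 71 bases before it, and in Gbp2 the match begins 58 bases before it. Of the 15 most raised genes, by the rule on level and overlap given below, 12 had a window of 300 bases (250 before and 50 after the start) and 5 of those held a pattern. Of the 15 most lowered genes 11 had one and 0 held a pattern, so no promoter of a lowered gene is shown. Over all 32851 windows, 4.26% held the kappaB-like and 8.56% the interferon-like pattern. Windows were matched to 11553 of the genes tested, and 4.56% of these held the kappaB-like and 7.01% the interferon-like pattern. The kappaB-like pattern was in 7.69% of the windows of raised genes and in 4.06% of those of lowered genes, and the interferon-like pattern in 12.4% and 6.21%. A match describes letters in the window and is not evidence of binding.

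Library totals lay between 26888244 and 35123335 counts, and 3 counts correspond to between 8.54e-06% and 1.12e-05% of a library. Normalised counts below are counts divided by a size factor set over the 8 libraries. In a principal component analysis of the 500 most variable genes the first component held 77.4% of the variance, with scores from 19.67 to 29.32 in LPS and from -24.36 to -22.04 in PBS libraries. PBS 272 stood apart on the second component (7% of the variance), at -14.33. LPS 270 was the LPS library with the lowest score on the first component. Xist and the Y-linked Ddx3y fitted the sex label of every library.

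LPS changed the whole-tissue transcriptome in both directions. Of 14640 genes tested 2191 were called, with an adjusted p under 0.05 (edgeR, Benjamini-Hochberg) and a log2 fold change past 0.32 in either direction. Of these 1174 were raised (8.02%) and 1017 lowered (6.95%). The raised side held the large changes, with 454 genes over 2-fold and 34 over 10-fold, against 154 and 0 on the lowered side. All 4 LPS libraries lay above all 4 PBS libraries for 12.3% of the genes tested and below them for 12.2%. The median log2 fold change of all genes tested was -0.004. A lower value in bulk tissue can be fewer cells of a type or less RNA per cell, and these cannot be told apart.

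Among called genes that averaged 100 or more normalised counts across the 8 libraries and whose groups did not overlap, the most raised was Mmp3, a secreted matrix protease. It had 0, 0, 2.11 and 10.6 normalised counts in PBS 268, 272, 273 and 506, and 565, 359, 174 and 321 in LPS 266, 267, 270 and 507, the order in which all values below are given. The groups did not overlap, and the log2 fold change was 6.74 (SE 0.61, adjusted p 1.95e-05). With so few PBS counts its size moved between 6.31 and 8.73 when single libraries were left out. Lcn2, which encodes the iron-scavenging protein lipocalin 2, had 261, 178, 198 and 161 in PBS and 10544, 10118, 6352 and 8416 in LPS libraries. Its log2 fold change was 5.47 (SE 0.20, adjusted p 1.82e-08), and the lowest LPS library was still far above the highest PBS library. The protease inhibitor gene Serpina3n rose from 553 ± 68.9 (SD, n = 4) to 11653 ± 2367 (n = 4), a log2 fold change of 4.40 (SE 0.16). The neutrophil growth factor gene Csf3, the chemokine genes Cxcl1 and Cxcl10, the metalloreductase gene Steap4 and the protease inhibitor gene Timp1 had log2 fold changes of 5.74, 5.51, 5.12, 5.06 and 4.65.

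By the same rule the most lowered genes came from several cell types. Gpr34, a microglial receptor, had 213, 263, 168 and 252 in PBS and 19.3, 37.6, 25.5 and 35.3 in LPS libraries, a log2 change of -2.92 (SE 0.24, adjusted p 9.44e-06). Crybb1, also microglial in brain, had -2.61. Oligodendrocyte genes followed, namely the receptor gene Gpr17 with -2.21 and the myelin gene Pllp with -2.17. The astrocyte gene Ppp1r3g, a glycogen-targeting subunit, had -2.05, and the vascular and barrier genes Slc22a8, Myl9 and Apln had -1.86, -1.81 and -1.78.

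**Figure D1:**
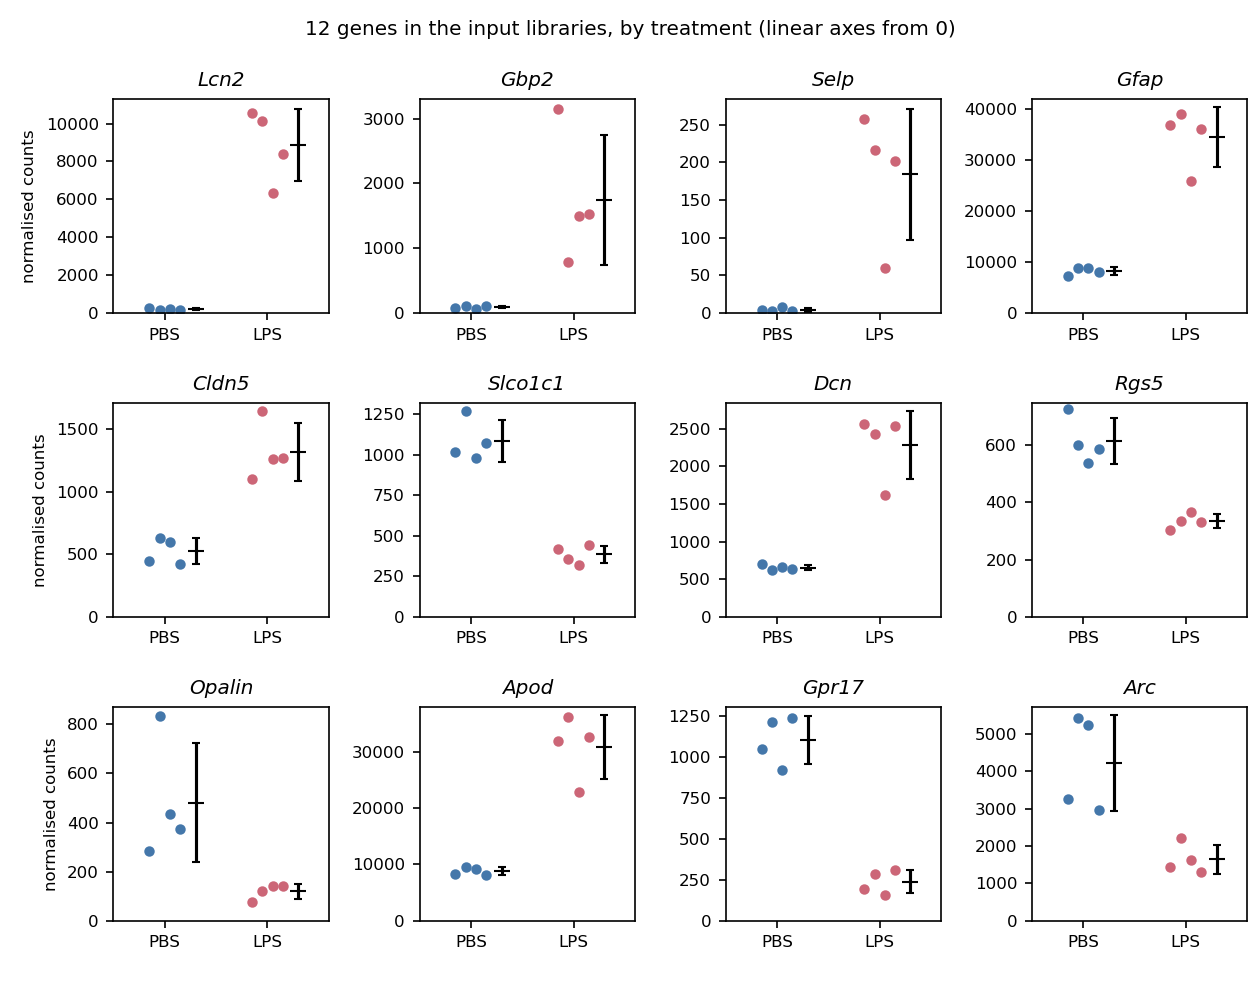
Normalised counts (vertical axes, linear, from 0) of 12 genes in the 4 PBS and 4 LPS input libraries. Points are libraries, black bars are the mean and SD of each group. The 2 groups of each gene shown do not overlap, and LPS 270 is the lowest LPS library of the raised genes Lcn2, Selp, Gfap, Dcn and Apod. It is also the lowest LPS library of Slco1c1 and Gpr17, which fell.

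Inflammatory signalling genes rose across the tissue. Of 41 tested interferon-stimulated genes 35 rose and 0 fell, with a median log2 fold change of 1.33. Irf7, a master transcription factor of the interferon response, had 65.2, 102, 89.7 and 52.1 in PBS and 685, 551, 675 and 566 in LPS libraries (log2 fold change 3.01, SE 0.19). The nucleic acid sensor gene Zbp1 and the antiviral membrane protein gene Ifitm3 had 4.04 and 2.74. All 14 tested interferon-inducible GTPases, which attack vacuoles that hold microbes, rose, with log2 fold changes from 1.80 to 4.27. Gbp2 went from 84.6, 102, 65.5 and 111 in PBS to 3150, 788, 1498 and 1536 in LPS libraries. Here LPS 266 was the highest and LPS 267 the lowest library, and the mean log2 deviation of the whole list from PBS was 3.50 in LPS 266 and 2.15 in LPS 267.

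Antigen presentation genes moved in both directions. MHC class I genes, which present peptides made inside the cell, were raised in 17 of 21 tested members and lowered in 1, the chaperone gene Calr (-0.54, SE 0.06), with a log2 fold change of 0.81 for B2m and 3.01 for their transactivator Nlrc5. Of 6 tested class II genes 4 were lowered and 0 raised. H2-Eb1 had 97.8, 93.5, 73.9 and 73.4 in PBS and 28, 22.4, 51.9 and 22.7 in LPS libraries (-1.43, SE 0.28, adjusted p 0.00406), and the class II transactivator Ciita had -1.41. In the 5 female libraries alone H2-Eb1 did not pass the test. H2 genes share sequence with each other, so counts may be split between them.

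The complement list had 13 of 20 members raised and 0 lowered. C3, the central component, had 46.9, 70.7, 41.2 and 48.9 in PBS and 904, 763, 211 and 843 in LPS libraries (3.71, SE 0.40), and C4b rose from 1225 ± 75.3 to 3929 ± 928 (SD, n = 4 and 4). Of 21 tested chemokine genes 14 rose and 2 fell, and the 2 that fell were Cx3cl1, the neuronal ligand of Cx3cr1, with -0.54, and Ccl27a with -0.52. With no filter 16 of 32 chemokine genes rose and 2 fell. Of 18 tested acute phase and secreted genes 17 rose and 0 fell (median 2.68), and with no filter 23 of 29 rose and 0 fell. Of 17 genes of NF-kB feedback 12 rose and 0 fell, and of 14 genes of LPS recognition 6 rose and 1 fell. The 1 that fell was the kinase gene Irak2 (-0.38, SE 0.11), whose groups overlapped and whose call was lost without LPS 266, LPS 267, LPS 507, PBS 268, PBS 273 or PBS 506. Cytokine genes had 7 of 19 raised and 2 lowered, the latter being Il33 (-0.95) and Il18 (-0.49). Il18 lost its call without LPS 270, LPS 507, PBS 268, PBS 272 or PBS 506. Tnf and Il1b rose from low counts, Tnf from between 4.08 and 9.12 to between 27.3 and 63.1 and Il1b from between 4.22 and 11.4 to between 25.5 and 46.8. Il6 stayed under the filter, with between 0 and 13.7 in PBS and between 3.36 and 8.14 in LPS libraries.

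The vessel side held both directions. Of 38 tested genes of endothelial activation 28 rose and 2 fell, with a median log2 fold change of 0.99. Selp, which encodes P-selectin, had 4.08, 2.28, 7.39 and 2.13 in PBS and 258, 217, 59.2 and 202 in LPS libraries (5.48, SE 0.54, adjusted p 3.64e-05). Sele, which encodes E-selectin, had 0, 0, 5.28 and 6.38 in PBS and 126, 86.5, 21.8 and 141 in LPS libraries (4.94, SE 0.74). Both selectins catch rolling leukocytes, and LPS 270 was the lowest LPS library for each. Icam1, a leukocyte adhesion gene, had 2.82 and Madcam1 had 3.28. Vcam1 was not called, at 0.36 (SE 0.15, adjusted p 0.11). The 2 that fell were Apln and Mcam. Apln, which encodes the vascular peptide apelin, had 1027, 1385, 1047 and 1185 in PBS and 225, 368, 425 and 329 in LPS libraries (-1.78, SE 0.17). Mcam had -0.61 (SE 0.14). Vegfa, the endothelial growth factor, is counted in the hypoxia list below and fell from 3877 ± 558 to 1635 ± 78.5 (-1.25, SE 0.10).

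Barrier genes included raised and lowered members. Cldn5, the main claudin of the endothelial tight junction, had 449, 628, 602 and 419 in PBS and 1103, 1649, 1258 and 1267 in LPS libraries, a log2 change of 1.33 (SE 0.16, adjusted p 0.000132). The cadherin gene Cdh5 had 0.77. Ocln, which encodes occludin, was at -0.31 (SE 0.13) and not called. Of 19 tested junction genes 5 rose and 2 fell, the latter being the astrocyte connexin gene Gja1 (-0.54) and Pkp4 (-0.53), and 3 rose when any PBS library, LPS 267 or LPS 507 was left out. Of 31 endothelial identity genes 11 rose and 4 fell. This count of raised genes was 6 without LPS 267, LPS 507 or PBS 506 and 7 without LPS 266, PBS 268 or PBS 273. The endothelial genes Itm2a, Ptprb and Sox17 fell, with -1.66, -1.02 and -1.01, while Cyyr1 rose, with 1.44, and Ly6a rose from 579 ± 96.5 to 1377 ± 465.

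Of 28 tested transporters of the barrier 7 were lowered and 2 raised. The raised count was 4 without LPS 266 or LPS 267, 3 without LPS 507, PBS 268 or PBS 272, 1 without LPS 270 or PBS 273, and 5 with total count scaling, where 7 were lowered. Slco1c1, a thyroid hormone transporter of brain endothelium and astrocytes, had 1018, 1274, 979 and 1073 in PBS and 417, 360, 321 and 443 in LPS libraries (-1.49, SE 0.12, adjusted p 1.13e-05). Slc22a8, an organic anion transporter, had 433, 390, 399 and 373 in PBS and 116, 112, 91.9 and 119 in LPS libraries (-1.86, SE 0.13). The amino acid transporter gene Slc38a5 fell from 61.7 ± 26.4 to 6.88 ± 3.70 (-3.16, SE 0.43). The transferrin receptor gene Tfrc rose, with 0.56, and so did the taurine transporter gene Slc6a6, with 0.33, which lost its call in 10 alternatives, among them without LPS 266, LPS 270, LPS 507, PBS 272 or PBS 273. The glucose transporter gene Slc2a1 (0.05, SE 0.09), the lipid transporter gene Mfsd2a (0.46, SE 0.17) and the efflux pump gene Abcb1a (-0.54, SE 0.24) were not called. In Abcb1a LPS 270 held 175 against between 427 and 450 in the other LPS libraries.

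Mural cells, fibroblasts and choroid plexus were measured with shorter lists. Rgs5, a pericyte signalling gene, had 726, 601, 538 and 587 in PBS and 304, 335, 366 and 332 in LPS libraries (-0.88, SE 0.12), whereas Pdgfrb, the pericyte growth factor receptor, had 613, 696, 572 and 555 against 791, 772, 886 and 793 (0.41, SE 0.10). Pdgfrb lost its call without animals 506 and 507 and in the fit of 17 libraries. Of 22 mural genes 2 rose, near the 8.02% of all genes tested, and 5 fell, against 6.95%. Of 24 fibroblast and meninges genes 4 rose and 6 fell. Dcn, a proteoglycan gene of vascular and meningeal fibroblasts, rose from 655 ± 37.4 to 2287 ± 450 (1.80, SE 0.13), while Fmod and Ogn, extracellular proteoglycans as well, had -1.61 and -1.48. Col1a1 was not called (-0.16, SE 0.20). Ttr, the main product of choroid plexus, was at 0.04 (SE 0.11), and 3 of 18 choroid and ependymal genes were lowered, among them the Wnt and BMP antagonist gene Sostdc1 (-1.92). LPS 270 was the lowest library of the fibroblast and of the choroid lists, with mean log2 deviations from PBS of -0.54 and -0.68. Without LPS 267 4 choroid and ependymal genes were lowered, and in the female libraries alone 0. Of 22 matrix and protease genes 10 rose and 3 fell. Acta2 was listed at 0 in all 8 libraries.

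**Figure D2:**
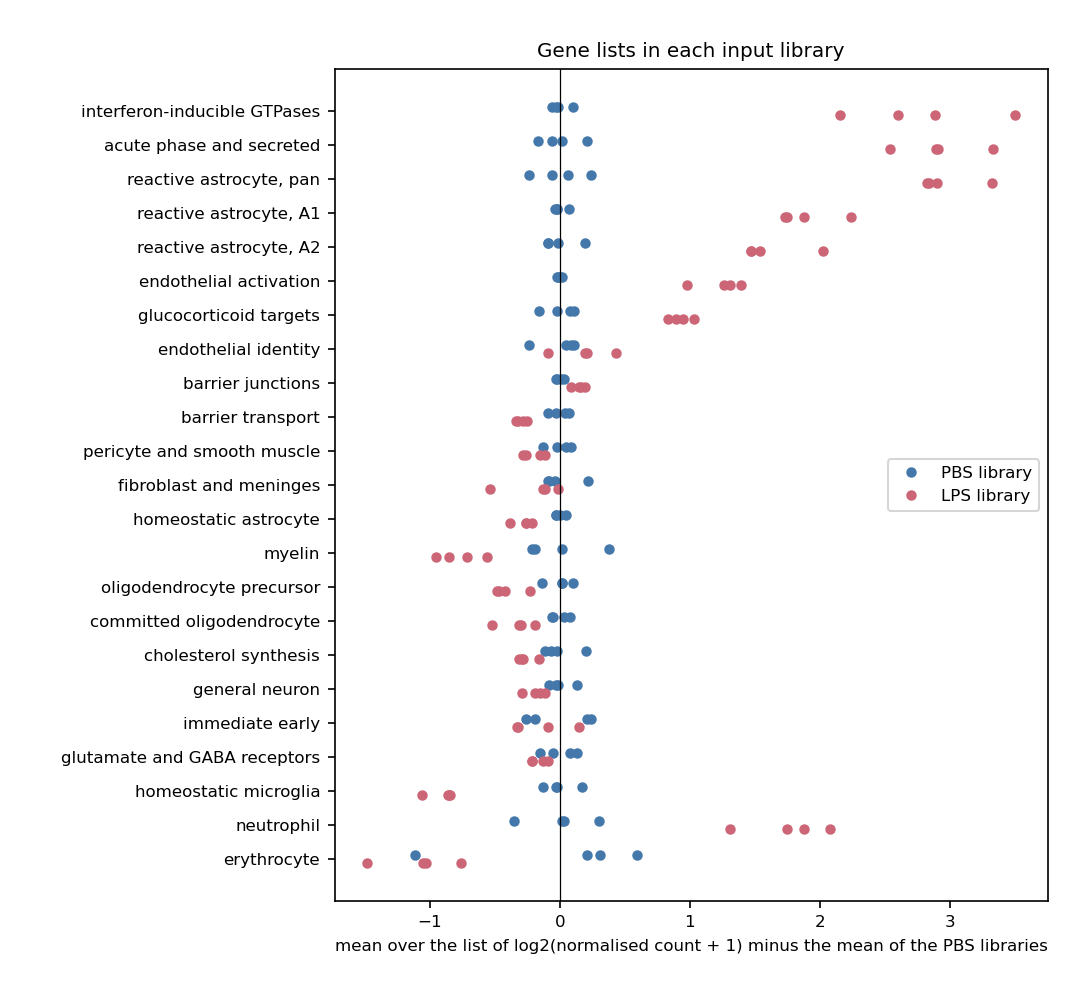
Mean deviation of each gene list in each of the 8 input libraries, as log2(normalised count + 1) minus the mean of the PBS libraries (horizontal axis, log2 units). Blue points are PBS and red points LPS libraries. In the myelin list PBS 272 sits at 0.38, and the LPS libraries between -0.95 and -0.56. In the erythrocyte list PBS 506 sits at -1.11, among the LPS libraries.

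Genes of the reactive astrocyte lists rose while many resting astrocyte genes fell. Of 13 pan-reactive genes 12 rose, with a median of 2.63, of 11 genes named A1 all 11 rose (median 1.56), and of 12 named A2 9 rose (median 1.34). A1 and A2 are names from work on neuroinflammation and ischaemia, and the lists share Gbp2, Psmb8 and Iigp1 with the interferon and MHC lists. In the positive fraction, the pull-down enriched for microglial transcripts, the pan-reactive, A1 and A2 medians were 2.52, 0.93 and 1.80. Which cells raised these lists in whole tissue was not tested. Gfap, the intermediate filament of astrocytes, had 7341, 8765, 8850 and 8013 in PBS and 36974, 39115, 25991 and 36063 in LPS libraries (2.07, SE 0.12, adjusted p 1.48e-06). Vim, a second filament, had 0.73, and the secreted glycoprotein gene Chi3l1 had 2.93.

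The homeostatic astrocyte list had 18 of 50 genes lowered and 5 raised, with a median of -0.20. Ppp1r3g had 406, 496, 527 and 397 in PBS and 84.9, 144, 120 and 90.8 in LPS libraries. Mfge8, which encodes a bridge for phagocytosis, fell from 4336 ± 397 to 2127 ± 288 (-1.03, SE 0.10), the glutamate receptor gene Grm3 from 1304 ± 203 to 678 ± 70 (-0.94, SE 0.12), and the fatty acid binding protein gene Fabp7 from 1261 ± 304 to 413 ± 143 (-1.61, SE 0.25). Aldh1l1, the folate enzyme used as a pan-astrocyte marker, rose, from 2471, 2584, 2528 and 2451 in PBS to 3610, 3941, 3368 and 3731 in LPS libraries (0.55, SE 0.07, adjusted p 0.000207), and so did the transcription factor gene Sox9 (0.55) and the urea transporter gene Slc14a1 (0.75). The water channel gene Aqp4 (-0.05, SE 0.08) and the glutamate transporter gene Slc1a2 (-0.08, SE 0.05) were not called. Of the 138 tested astrocyte genes tabulated by the study from published data, 48 were lowered and 14 raised.

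Many oligodendrocyte genes fell. Of 40 tested myelin genes 27 were lowered and 1 raised, with a median of -0.75. All LPS lay below all PBS libraries for 26 of the 40, and for 12.2% of all genes tested. Opalin, a membrane protein of mature oligodendrocytes, had 285, 834, 434 and 373 in PBS and 75.2, 121, 140 and 140 in LPS libraries (-2.01, SE 0.31, adjusted p 0.0009). PBS 272 was the highest library here and in the list as a whole, and the list had 25 genes lowered and a median of -0.59 without it. In the female libraries alone 19 of 40 were lowered, with a median of -0.51. Ugt8a, the enzyme that makes the myelin lipid galactosylceramide, had 1332, 2225, 1412 and 1536 in PBS and 446, 460, 368 and 500 in LPS libraries (-1.87, SE 0.16). Mog had -1.38 (SE 0.18).

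Mbp, the myelin basic protein gene, had 60640, 85736, 72712 and 49779 in PBS and 35189, 54515, 49546 and 41542 in LPS libraries (-0.57, SE 0.16, adjusted p 0.0272). Its groups overlapped, and its call was lost when LPS 266, LPS 507, PBS 272 or PBS 273 was left out. The 1 myelin gene that rose was Apod, which encodes the lipid carrier apolipoprotein D. It had 8351, 9575, 9111 and 8063 in PBS and 31879, 36216, 22831 and 32681 in LPS libraries, a log2 change of 1.82 (SE 0.12, adjusted p 2.42e-06).

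Earlier stages of the lineage moved less. Of 22 precursor genes 9 were lowered and 0 raised, among them Rlbp1 (-1.21), C1ql1 (-1.16) and Cacng4 (-0.96), while Pdgfra, the receptor that defines precursors, was not called (0.14, SE 0.09). Gpr17, the receptor that marks committed precursors, had 1051, 1213, 919 and 1237 in PBS and 196, 287, 160 and 309 in LPS libraries (-2.21, SE 0.19, adjusted p 1.47e-05), and 5 of 22 genes of its list were lowered. Of 24 genes of cholesterol synthesis, a process that myelination draws on, 9 were lowered, with a median of -0.33. That count was 5 without PBS 272, 3 without animals 506 and 507, and 2 in the female libraries. Srebf2, the master regulator of the pathway, had -0.55 (SE 0.07). Of the 194 tested oligodendrocyte genes tabulated by the study, 88 were lowered and 3 raised, and in the female libraries alone 53 and 4.

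The neuronal genes called were lowered. Of 35 general neuron genes 5 were lowered (14.3%, against 6.95% of all genes tested) and 0 raised, with a median of -0.18 and a range from -0.66 to 0.11. The lowered count lay between 4 and 7 when 1 library was left out. Of the 99 tested neuron genes tabulated by the study 9 were lowered (9.09%, near the share of all genes tested) and 0 raised. Calb2, the calcium buffer calretinin, had 5234, 5371, 5286 and 5417 in PBS and 3100, 3743, 3086 and 3541 in LPS libraries (-0.66, SE 0.08, adjusted p 0.000117). The adhesion gene L1cam had -0.63 (SE 0.07). Snap25, a synaptic fusion gene (-0.11, SE 0.05), Gad1, the GABA-synthesising enzyme (-0.06, SE 0.09), and Rbfox3, the source of the NeuN antigen (-0.21, SE 0.07), were not called.

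Activity-regulated genes divided. Arc, a dendritic immediate early gene, had 3258, 5439, 5230 and 2962 in PBS and 1444, 2205, 1617 and 1308 in LPS libraries (-1.36, SE 0.21, adjusted p 0.000885), and Bdnf, a neurotrophin gene, fell from 1005 ± 92.3 to 569 ± 78.1 (-0.82, SE 0.11). Fos was not called, with 564, 1464, 1477 and 470 against 537, 1029, 1035 and 513. PBS 272 and 273, the libraries of the male PBS animals, held the higher values of Arc and Fos within their group. Maff, a small Maf transcription factor gene, rose from 178 ± 37.4 to 524 ± 125 (1.55, SE 0.19). In the whole list of 31 immediate early genes 5 rose and 9 fell, and 6 fell without LPS 270 and 13 without LPS 267. Glutamate and GABA receptor genes had 7 of 35 lowered, led by the cerebellar receptor gene Grm4 (-0.91, SE 0.17), but 1 without animals 506 and 507 and 4 without PBS 506. Sodium and potassium channel genes had 3 of 38 lowered (7.89%, near the 6.95% of all genes tested), with Kcna6 at -0.70 (SE 0.08), and 5 without PBS 272 or 2 without PBS 268 or PBS 273. Monoamine and acetylcholine receptor genes had 3 of 33 lowered, also near the 6.95% of all genes tested, and 1 raised (0 without LPS 507 or PBS 268). Among them the histamine receptor gene Hrh1 had -1.15 (SE 0.21). The lowered count was 1 without LPS 266 or PBS 273, 2 without PBS 268 or PBS 506, and 0 in the female libraries. Among 23 neuropeptide genes Prok2 rose (2.07, SE 0.32) and 2 fell, again near the share lowered over all genes tested. The lowered count was 1 without LPS 507 or PBS 272, and 3 without LPS 267, LPS 270 or PBS 268.

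Targets of the glucocorticoid receptor rose in 18 of 31 tested members and fell in 0, with a median of 0.51. Fkbp5, a chaperone of that receptor, had 2880, 1671, 1997 and 2676 in PBS and 6362, 5971, 7258 and 6167 in LPS libraries (1.48, SE 0.15, adjusted p 4.52e-05). Angptl4, a lipase inhibitor gene, and the kinase gene Map3k6 had 2.49 and 2.27. Sgk1 (0.29, SE 0.10), Tsc22d3 (-0.07, SE 0.08) and Per1 (0.26, SE 0.16), which are targets as well, were not called. The list also holds Lcn2, an NF-kB target. Cdkn1a, a cell cycle inhibitor gene, had 1965, 1225, 1882 and 1759 in PBS and 4511, 5189, 9518 and 4834 in LPS libraries, and LPS 270 was here the highest.

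Lists of stress and of time of day were counted in the same way. For comparison, 8.02% of all genes tested were raised and 6.95% lowered. Of 19 clock genes 4 rose and 0 fell, with Arntl, a core clock factor, at 0.01 (SE 0.15). The raised count was 2 without LPS 267, LPS 270, PBS 268, PBS 273 or PBS 506, and 0 in the female libraries and in the 17-library fit. Of 23 hypoxia and glycolysis genes 2 rose and 2 fell, near the shares of all genes tested. The counts were 1 and 1 without LPS 266 or LPS 507, and 1 rose without LPS 267, PBS 272 or PBS 273. In this list Vegfa was the most lowered. Of 19 heat shock genes 2 rose and 3 fell. Hspb1, a small heat shock protein gene, had 274, 279, 285 and 203 in PBS and 1119, 1104, 939 and 1035 in LPS libraries (2.01, SE 0.12, adjusted p 1.91e-06). Cryab, a small heat shock protein gene abundant in oligodendrocytes, fell from 2700 ± 727 to 1389 ± 196 (-0.96, SE 0.16), and the chaperone gene Hsph1 had -0.66. Of 21 oxidative defence genes 9 rose and 0 fell, led by the phagocyte oxidase gene Cybb (2.84) and the peroxidase gene Gpx3 (1.90). Of 27 cell cycle genes 5 rose and 0 fell, but 2 rose without PBS 268 and in the female libraries, 3 without LPS 266, LPS 507 or PBS 273, and 4 without any other single library.

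**Figure D3:**
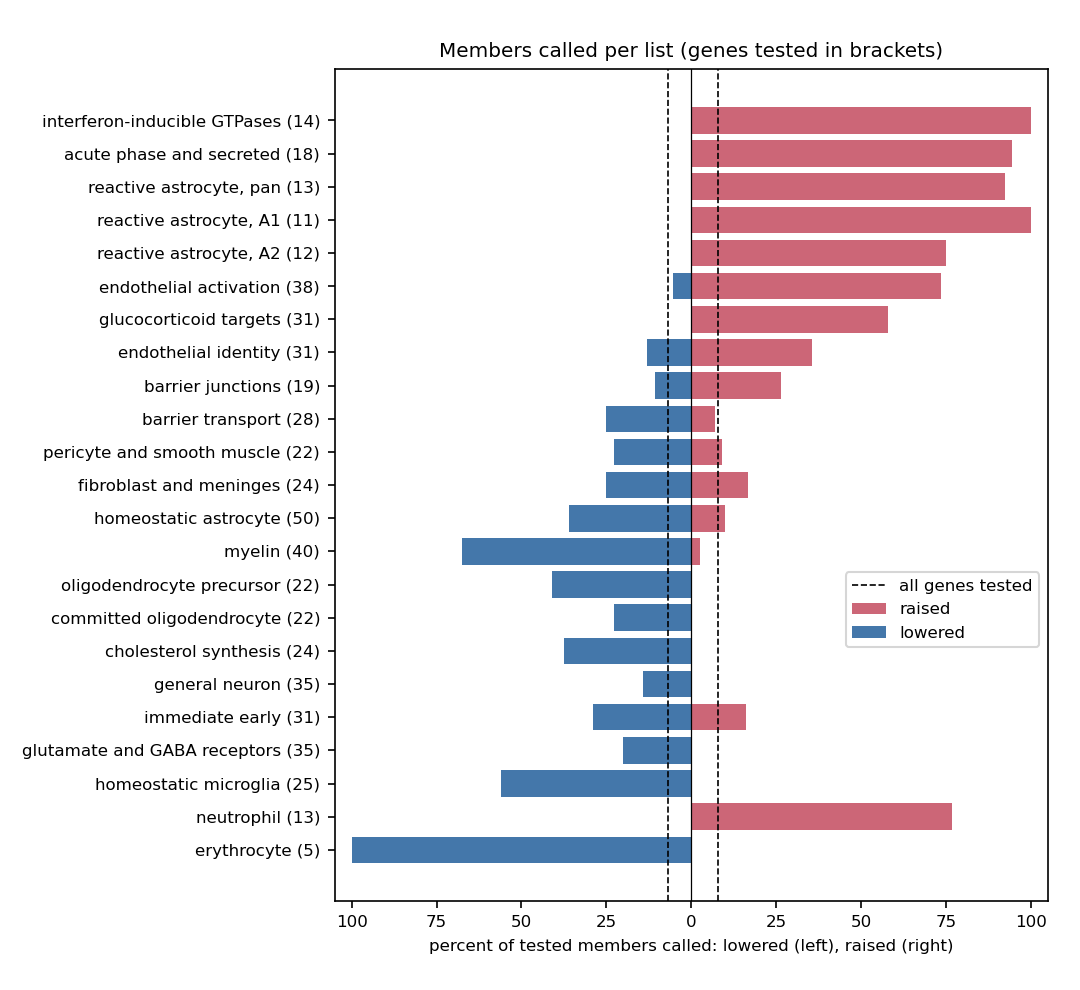
Percent of the tested members of each list that were called lowered (left, blue) or raised (right, red), with the number tested in brackets. Dashed lines mark the shares over all genes tested, 6.95% lowered and 8.02% raised. In the myelin list 27 of 40 tested members were lowered and in the interferon-inducible GTPase list all 14 tested members were raised.

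Lists named after blood cells and microglia moved with treatment beside these results. Of 22 neutrophil genes 13 passed the filter and 10 rose, but in the female libraries alone 5 of 13 rose (median 1.68). The summed level of the list lay between 892 and 1363 in PBS and between 1586 and 2983 in LPS libraries. S100a8 had 126, 70.7, 85.5 and 63.8 in PBS and 461, 472, 127 and 329 in LPS libraries (2.00, SE 0.36), and lost its call in the female libraries alone. Of the members under the filter Cd177 lay between 2.13 and 6.11 in PBS and between 10.9 and 55 in LPS libraries, 1100001G20Rik between 0 and 4.08 and between 5.46 and 36.6, and Stfa2l1 between 0 and 4.08 and between 5.46 and 11.8, so the groups of these 3 genes did not overlap. Of the others Ly6g was at 0 in all 8 libraries, Elane was between 0 and 11.2 in PBS and at 0 in LPS libraries, and Mpo lay between 3.19 and 19.4 and between 0.91 and 5.04. The 3 most raised of the list were the receptor genes Fpr1, Fpr2 and Il1r2, with 3.15, 3.02 and 2.91. In the positive fraction, the pull-down enriched for microglial transcripts, they had 6.01, 6.37 and 6.58. The list had a median of 2.00 in input and 2.45 in that fraction. The difference between fractions, tested as given below, was called for 6 of the 13 genes, 1 of them with the higher log2 change in input. Which cells the rise came from was not tested. Of 21 lymphocyte genes 2 passed the filter and 0 were called, with Cd3e between 0 and 5.32 in all libraries.

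Hemoglobin and heme genes fell. All 5 tested erythrocyte genes were lowered, with a median of -1.10. Hbb-b1 had 1985, 1664, 1628 and 604 in PBS and 481, 615, 749 and 619 in LPS libraries (-1.25, SE 0.28, adjusted p 0.00897), so PBS 506 lay within the LPS range. In the female libraries alone 0 of the 5 were called, and 2 without LPS 266, 3 without LPS 267, LPS 507, PBS 268, PBS 272 or PBS 273. The summed level of the list lay between 2350 and 7906 in PBS and between 1942 and 3188 in LPS libraries. Methods of the study name both cervical dislocation and perfusion, and which was used for each animal was not given in the sources used here. The part of residual blood in the results above was not tested. Globin genes share sequence, so counts may be split between them.

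Microglial lists held both directions. Homeostatic microglia genes were lowered in 14 of 25 tested members and raised in 0, whereas of 19 pan-microglial genes 9 rose and 2 fell (median 0.54), and of the 238 tested microglial genes tabulated by the study 80 were raised and 28 lowered (median 0.25). P2ry12, the purinergic receptor of resting microglia, had 579, 752, 513 and 700 in PBS and 123, 157, 186 and 148 in LPS libraries (-2.05, SE 0.16, adjusted p 8.04e-06). The integrin gene Itgam, shared by microglia and other myeloid cells, rose from 825 ± 54.2 to 1885 ± 563 (1.19, SE 0.19), and Aif1 was not called (-0.19, SE 0.28). LPS 270 was the lowest LPS library of Itgam, Aif1, Marco and the neutrophil list. Marco, a scavenger receptor gene of macrophages, had 152, 176, 138 and 181 in PBS and 4535, 2659, 275 and 1884 in LPS libraries.

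The positive fraction of the same animals, enriched for microglial transcripts, allowed a test of whether the response in whole tissue differed from that of this fraction. The test was the interaction of treatment and fraction over 17 libraries. The fraction is enriched and not pure, and the paper reported astrocyte, neuron and oligodendrocyte marker genes as depleted in it. Which cells gave its values for genes of other cell types was not tested. Of 14803 genes 1018 were called (6.88%), 210 with the higher (1.42%) and 808 with the lower (5.46%) log2 change in input. With the animal as a replicate block, which fits because the 2 fractions come from the same animals, 1915 were called (12.9%), 597 higher and 1318 lower in input. Of the 2191 genes called in input the difference was called for 216, and 75 of these had the larger absolute change in input, 55 raised and 20 lowered. With the block these numbers were 437 and 217. Differences of single genes and lists given here are from the fit without the block, unless the block is named.

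Of the 55 genes with the larger rise in input, the 5 described first are those most raised in input among genes that averaged 100 or more normalised counts, and 3 of them encode guanylate-binding proteins. Gbp3 had 92.7, 151, 94 and 95.7 in Input PBS and 1494, 649, 1091 and 847 in Input LPS libraries. Its log2 fold change was 3.24 (SE 0.26) in input and 1.51 in the positive fraction, a difference of 1.74 (adjusted p 0.00515). Gbp9 had 2.08 in input and 0.24 in the positive fraction (difference 1.85, adjusted p 0.00734), and Gbp5 3.66 and 1.80 (1.86, adjusted p 0.0305). Of the 14 interferon-inducible GTPases the difference was called for 5 without the block, all with the higher change in input. Medians of the 14 were 2.86 in input and 1.83 in the positive fraction. With the block the differences of Gbp2 (1.08, adjusted p 0.000541) and Iigp1 (1.61, adjusted p 0.000736) were called as well. Psmb8, a subunit of the immunoproteasome, had 2.10 and 0.85 (1.26, adjusted p 0.00279), and Chi3l1 had 2.93 and 1.96 (0.98, adjusted p 0.0287). Among other named genes Madcam1, at low counts, had 3.28 and 1.18 (2.10, adjusted p 0.0156) and Maff had 1.55 and 0.28 (1.28, adjusted p 0.0202). The differences of Gbp5 and Chi3l1 lost their call in 8 and 10 of 22 alternatives, among them, for both genes, the fits without Input LPS 266, Input PBS 268, Input PBS 273, Input PBS 506, Positive LPS 507, Positive PBS 272 or Positive PBS 273. Gbp5 then had a difference of at least 1.30 and Chi3l1 of at least 0.86.

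Of the 20 genes with the larger fall in input, the 5 most lowered at that level were Ugt8a, Lpar1, Gatm, Qdpr and Etv4. Gatm, the first enzyme of creatine synthesis, had 4345, 6256, 4637 and 4667 in Input PBS and 2072, 2409, 1920 and 2405 in Input LPS libraries. Its change was -1.18 (SE 0.12) in input and -0.13 in the positive fraction (difference -1.04, adjusted p 0.000747). Ugt8a had -1.87 and -0.74 (-1.13, adjusted p 0.00329), the lysophosphatidic acid receptor gene Lpar1 -1.32 and -0.55 (-0.76, adjusted p 0.0131), and Qdpr, which regenerates tetrahydrobiopterin, -0.97 and -0.08 (-0.88, adjusted p 0.00615). Ugt8a, Lpar1 and Qdpr are on the myelin list, where the difference was called without the block for 4 of 40 genes, all with the lower change in input. With the block the difference of Pllp was called as well (-0.65, adjusted p 0.0103), and that of Opalin was not (-0.81, adjusted p 0.208). The lower change in input was also the commoner direction over all genes, with 5.46% called lower and 1.42% called higher in input. Etv4, a transcription factor gene, had -0.96 and 0.04 (-1.0, adjusted p 0.0233), and its call was lost in 4 of 22 alternatives, among them without Input LPS 266.

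**Figure D4:**
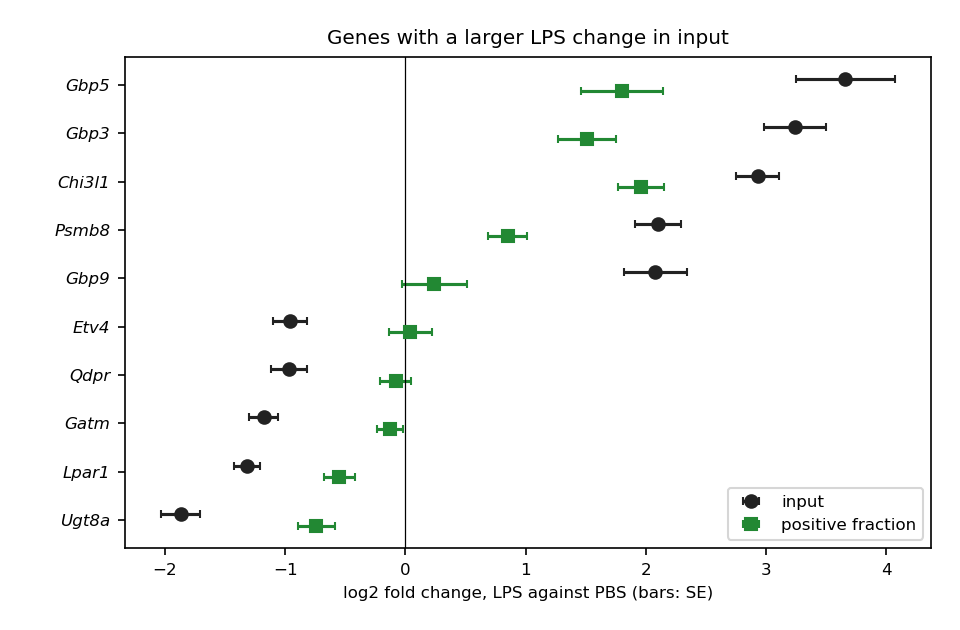
Log2 fold change of LPS against PBS (horizontal axis) in input (black circles) and in the positive fraction (green squares) for 10 genes chosen because their change was larger in input; bars are SE. Gbp9 sits at 2.08 in input and 0.24 in the positive fraction, and Gatm at -1.18 and -0.13.

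Several vessel genes had the higher log2 change in input. This direction was not limited to vessels. Medians in input and in the positive fraction were 0.26 and -0.40 for endothelial identity genes and -0.18 and -0.43 for general neuron genes. Sodium and potassium channel genes had -0.07 and -0.24. The myelin list, among others, went the other way, with -0.75 and -0.49. Whether the differences below are particular to vessel cells was not tested. Cldn5 had 1.33 in input and 0.51 in the positive fraction, a difference of 0.82 that was called with the block (0.83, adjusted p 7.28e-05) and not without it (adjusted p 0.0563). Slco1c1 fell less in input (-1.49) than in the positive fraction (-2.59), with a difference of 1.10 (adjusted p 0.00328), and Itm2a likewise, with -1.66 and -2.39 (0.73, adjusted p 0.0204). Slc2a1 had 0.05 and -0.56 (0.61, adjusted p 0.0429). The difference was called for 4 of 28 transport genes and for 3 of 31 endothelial identity genes, all with the higher log2 change in input. Over all genes 1.42% were called in that direction. By contrast Gfap (2.07 and 1.95), Apod (1.82 and 1.80), Dcn (1.80 and 1.68), Gpr17 (-2.21 and -2.39) and Arc (-1.36 and -1.34) had values side by side whose difference was not called, with SEs of the difference of 0.19, 0.19, 0.18, 0.33 and 0.41.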

How the data were processed

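RNA of the input and positive fractions of 9 animals was sequenced by the authors (poly-A selected, stranded, paired-end), aligned and quantified in Strand NGS against mm10. The deposited raw values are expected counts, that is estimated counts per gene, of which 81.6% of the nonzero ones were not whole, and they were rounded. The log2 values that the authors deposited, normalised with DESeq and set relative to the Input PBS median, were used only as an alternative.

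Of 36172 genes 20743 had a count in the 8 libraries. Counts were scaled by median-of-ratios size factors set on 16562 genes. Genes with over 20 normalised counts in every library of at least 1 group were tested with the quasi-likelihood test of edgeR 4.0.16 in R 4.3.3, and called where p, adjusted after Benjamini and Hochberg, was under 0.05 and the log2 fold change past 0.32. SE is the log2 fold change divided by the root of F. Lists are described by counts and medians, with no test. The interaction with fraction was fitted over 17 libraries. The replicate block was the animal, which pairs the fractions: over 8 pairs the deviations from group means correlated at 0.241 to 0.543. DESeq2 1.42.0 and limma 3.58.1 (pseudocount 1) served as alternatives. The steps were tested on simulated data. RefSeq promoter windows came from GRCm38.p6, the patch series of mm10.

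Named genes were the 15 most raised and 15 most lowered by the rule in the text, up to 3 called in each direction per list, 5 each way with the larger change in input, and a fixed set. Members and lists were chosen with earlier results of these data known. Intervals from depth cover counting error only. Some genes that meet the naming rule are not reported here.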

Additional observations from a re-analysis of the deposited data

Results flagged for a closer look

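In 32 of 452 groups of 4 libraries (7.1%, where chance gives about 1 in 20), 1 library lay far from the other 3 by Dixon's criterion. PBS 272 accounted for 10 of them and LPS 270 for 11. All values are normalised counts in the library named.

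In PBS 272 they were Bfsp2 at 250, Il33 at 2718, Mmp15 at 1128, Trem2 at 525, Icam1 at 160, Celf6 at 1228, Gbp3 at 151, Gatm at 6256 and Crh at 242, all above the other PBS libraries, and Per3 at 1413, below them. In LPS 270 the values above the other LPS libraries were Irak2 at 917, Ptprb at 481, Cdkn1a at 9518, Mcm7 at 948 and Arntl at 1511, and those below were Dcn at 1619, Hk2 at 341, Itgam at 1048, Abcb1a at 175, Vim at 2616 and Aif1 at 77.4. PBS 273 was apart in Nlrc5 at 33.8 and Tnc at 144, PBS 506 in Serpina3m at 3.19 and Hspb1 at 203, and PBS 268 in Slc47a1 at 139. LPS 266 was apart in Ptx3 at 341, Cacng4 at 174 and Tmbim1 at 2504, LPS 267 in Cyyr1 at 96.7 and Hexa at 1263, and LPS 507 in Hrh3 at 4076.

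The LPS effect differed between input and positive fraction for 32 named genes by the interaction in edgeR without the block, with values given as input minus positive on the log2 scale. For 10 genes chosen for the larger change in input, the difference was 1.86 for Gbp5, 1.85 for Gbp9, 1.74 for Gbp3, 1.26 for Psmb8 and 0.98 for Chi3l1, and -1.13 for Ugt8a, -1.04 for Gatm, -1.0 for Etv4, -0.88 for Qdpr and -0.76 for Lpar1, and its size there is a description. Of the other 22, those with the higher log2 change in input were Slc2a5 at 2.45, Madcam1 at 2.10, Maff at 1.28, Slco1c1 at 1.10, Hspb1 at 0.82, Itm2a at 0.73 and Slc2a1 at 0.61. Those with the lower one were the myeloid and inflammatory genes Il1r2 at -3.66, Marco at -3.55, Fpr2 at -3.35, Fpr1 at -2.86, Ikbke at -2.72, S100a8 at -2.72, Saa3 at -2.71, Msr1 at -2.05, Irak3 at -1.84, Socs3 at -1.31, Igsf6 at -1.31, Cfb at -1.18 and Tlr2 at -1.14, and Tmbim1 at -0.65 and Eno1 at -0.41.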

How the results depend on the processing

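Of 2191 genes called in input, 1174 were raised and 1017 lowered. In female animals alone 1300 were called (669 raised, 631 lowered), without animals 506 and 507 1387 (753 and 634), and at a fold over 2 608 (454 and 154). Leaving out 1 library gave 1697 to 2199 (908 to 1162 raised, 789 to 1037 lowered). Scaling by total count gave 2218, split into 1393 raised and 825 lowered. DESeq2 called 2521, TMM scaling 2182, limma 2174, no filter 2276, all 9 input libraries 1985, the deposited log2 values 2038, a sex term 2204 and the 17-library fit 1839. The difference between fractions was called for 1018 genes (210 higher, 808 lower in input), for 1915 (597 and 1318) with the replicate block by animal, for 323 (59 and 264) without animals 506 and 507, and for 749 to 1263 (145 to 259 and 597 to 1023) with 1 library left out. The cause of these shifts was not tested, and the subsets also held fewer libraries. Of 229 tested named genes 201 were called, 58 of these lost the call in at least 1 alternative, 24 of them with 1 library left out, and 0 reversed. Depth limits genes under 20 normalised counts, which were not tested.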
